A study of Mus musculus with 19 samples.

Results

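The mitochondrial ribosomal protein genes were followed through hearts that had lost the mitochondrial pyruvate carrier subunit MPC1. They were taken as every protein-coding gene whose symbol starts with Mrpl or Mrps and a digit, which gave 78 genes of the 55536 annotated. By textbook assignment 51 encode proteins of the large subunit, Mrps18a and Mrps30 among them despite their names, and 26 encode proteins of the small subunit. The remaining gene, Mrps36, carries the name but encodes a component of the 2-oxoglutarate dehydrogenase complex. Another 5 genes with such symbols are pseudogenes or other non-coding genes and were not taken.

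The study used adult mice with an inducible, heart-specific knockout of Mpc1 and sequenced total ventricular RNA after rRNA depletion. Wild-type and MPC1 knockout mice were sampled 8 weeks (WT-8, n = 5; KO-8, n = 4) and 16 weeks (WT-16, n = 5; KO-16, n = 5) after induction. The labels give no promoter for the recombinase, no inducing agent, no strain and no age, and they do not say that libraries came from separate animals. The p-values therefore measure the spread between these 19 libraries, which may be technical in part.

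Mitochondria carry their own ribosome, which translates the few mRNAs of mitochondrial DNA into subunits of the respiratory chain and the ATP synthase. Its rRNAs are transcribed inside the organelle, whereas all of its proteins are encoded in the nucleus, made in the cytosol and imported. The small subunit binds the mRNA and decodes it, and the large subunit forms the peptide bonds and feeds the new chain into the inner membrane. Some of the proteins have bacterial homologues and others occur only in mitochondria. The heart is rich in mitochondria, and inherited defects of several of these proteins cause cardiomyopathy.

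Mpc1 itself was at 74.3 CPM ± 6.82 in WT-8 (CPM scales a gene's count to its library's effective total) and 10.8 ± 1.62 in KO-8, and at 69.6 ± 9.29 (WT-16) against 15.1 ± 6.99 (KO-16) at the later time (mean ± SD), with no overlap between genotypes at either time. Library totals were 8632127 to 27516660 counts. The share of counts on an 18S rRNA gene was at most 0.0666% at 8 weeks. At 16 weeks it was 39.1%, 25.2%, 6.88%, 23.2% and 29.7% in WT-16 and 12.7%, 1.71%, 5.66%, 30.0% and 26.1% in KO-16. The ribosomal protein genes received 6605 to 65815 counts per library. At 16 weeks they received 6605, 9036, 36193, 10237 and 7469 in WT-16 and 25206, 63391, 22809, 13837 and 9141 in KO-16. The 18S share was thus mostly higher, and these counts mostly lower, in WT-16 than in KO-16, with overlap. Their part in the KO-16 to WT-16 differences was not tested beyond the 18S settings given below. The 8-week and 16-week libraries also differed in how many files they were deposited in, so time and library preparation or run cannot be told apart. WT-16 replicate 5 and KO-16 replicate 4 had the Y-linked transcripts of males, and the other libraries those of females.

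Messenger levels of the family covered a wide range in the ventricle. Divided by the exon length of each gene, the mean level over the 19 libraries had a median of 7.13 CPM per kb, against 1.88 for all genes tested, and the highest tested gene exceeded the lowest 56.2-fold. The highest was Mrps21, a small-subunit homologue of bacterial S21, at 48.8 CPM per kb. It was followed by Mrpl18 at 41.3, Mrps23 at 38.4, Mrpl42 at 37.0 and Mrpl34 at 36.6 CPM per kb. These 5 belong to both subunits and to both the bacterial and the mitochondria-specific class. Mrps21 had group means of 44.6 (WT-8), 46.6 (KO-8), 56.9 (WT-16) and 46.7 CPM per kb (KO-16), and Mrpl42 had 36.3, 32.8, 45.2 and 32.8 in the same order. At the other end stood Mrps14 at 2.24, Mrps33 at 2.11, Mrps10 at 1.12 and Mrpl23 at 0.868 CPM per kb. The exon lengths are unions over all transcripts of a gene, which lowers genes with long rare exons, and per kb of the longest coding transcript Mrps10 read 8.10 and Mrpl23 5.76. The upper end also depended on the length, since Mrpl33 went from rank 66 (3.05 CPM per kb of exon) to rank 4 (46.8 per kb of transcript) and Mrpl34 from rank 5 to 7, while Mrpl42 became the highest. The ranks by the 2 lengths had a Spearman rho of 0.80 over the 78 genes. The median was 7.84 CPM per kb for large-subunit genes and 5.76 for small-subunit genes.

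**Figure D1:**
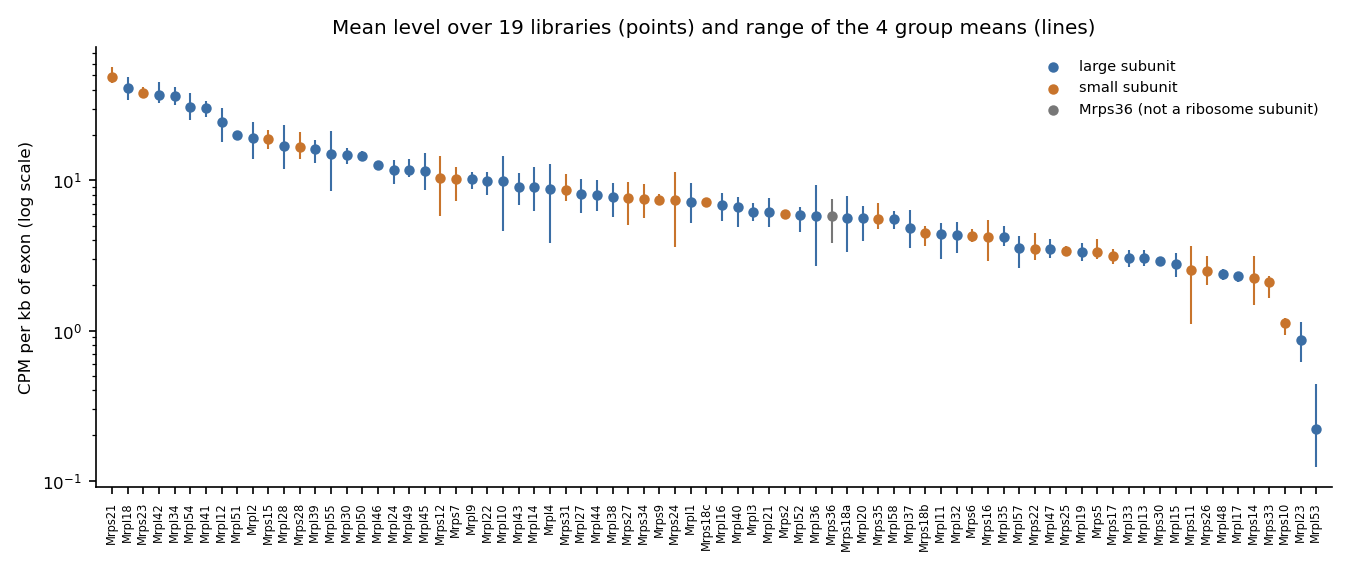
Level of each gene in CPM per kb of exon (log scale), as the mean over 19 libraries (points) and the range of the 4 group means (lines), coloured by subunit. Mrps21 is highest at 48.8 CPM per kb, and Mrpl53 stands apart as the lowest at 0.221.

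Mrpl53 was the only member that failed the filter on low counts. It was listed at 0 to 0.489 CPM and at most 12 counts in any library. Of its exon length, 88.0% is shared with the predicted gene Gm42688 on the same strand, so reads may be assigned to either or left uncounted. Mrpl53 was not tested. The other 77 genes were tested at both times.

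At 8 weeks after induction, 5 of the 77 genes differed between KO-8 and WT-8 by edgeR's quasi-likelihood test with Benjamini-Hochberg adjustment over all genes. Mrps34, Mrpl45, Mrpl19 and Mrpl43 rose and Mrpl39 fell. This share, 6.49%, stood beside 8.21% of all 15173 genes tested, of which 4.3% of genes were higher and 3.91% lower. At an unadjusted p under 0.05 stood 8 higher and 3 lower members, 14.3% beside 23.2% of all genes. By subunit, 3 large-subunit genes rose and 1 fell of 50, and 1 of 26 small-subunit genes rose. By class, 1 of the 44 genes with a bacterial homologue passed and 4 of the 32 mitochondria-specific ones. The differences were small: all 77 lay within 1.5-fold, as did 94.6% of all genes, and their median was 0.04 on the log2 scale against 0.00 for all genes. Between libraries of the same group, the members' median level had an SD of 0.066 (log2, pooled over WT-8 and KO-8). The fitted difference was positive for 51 genes and negative for 26. In bulk tissue, fewer cells of a type and less RNA per cell cannot be told apart.

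**Figure D2:**
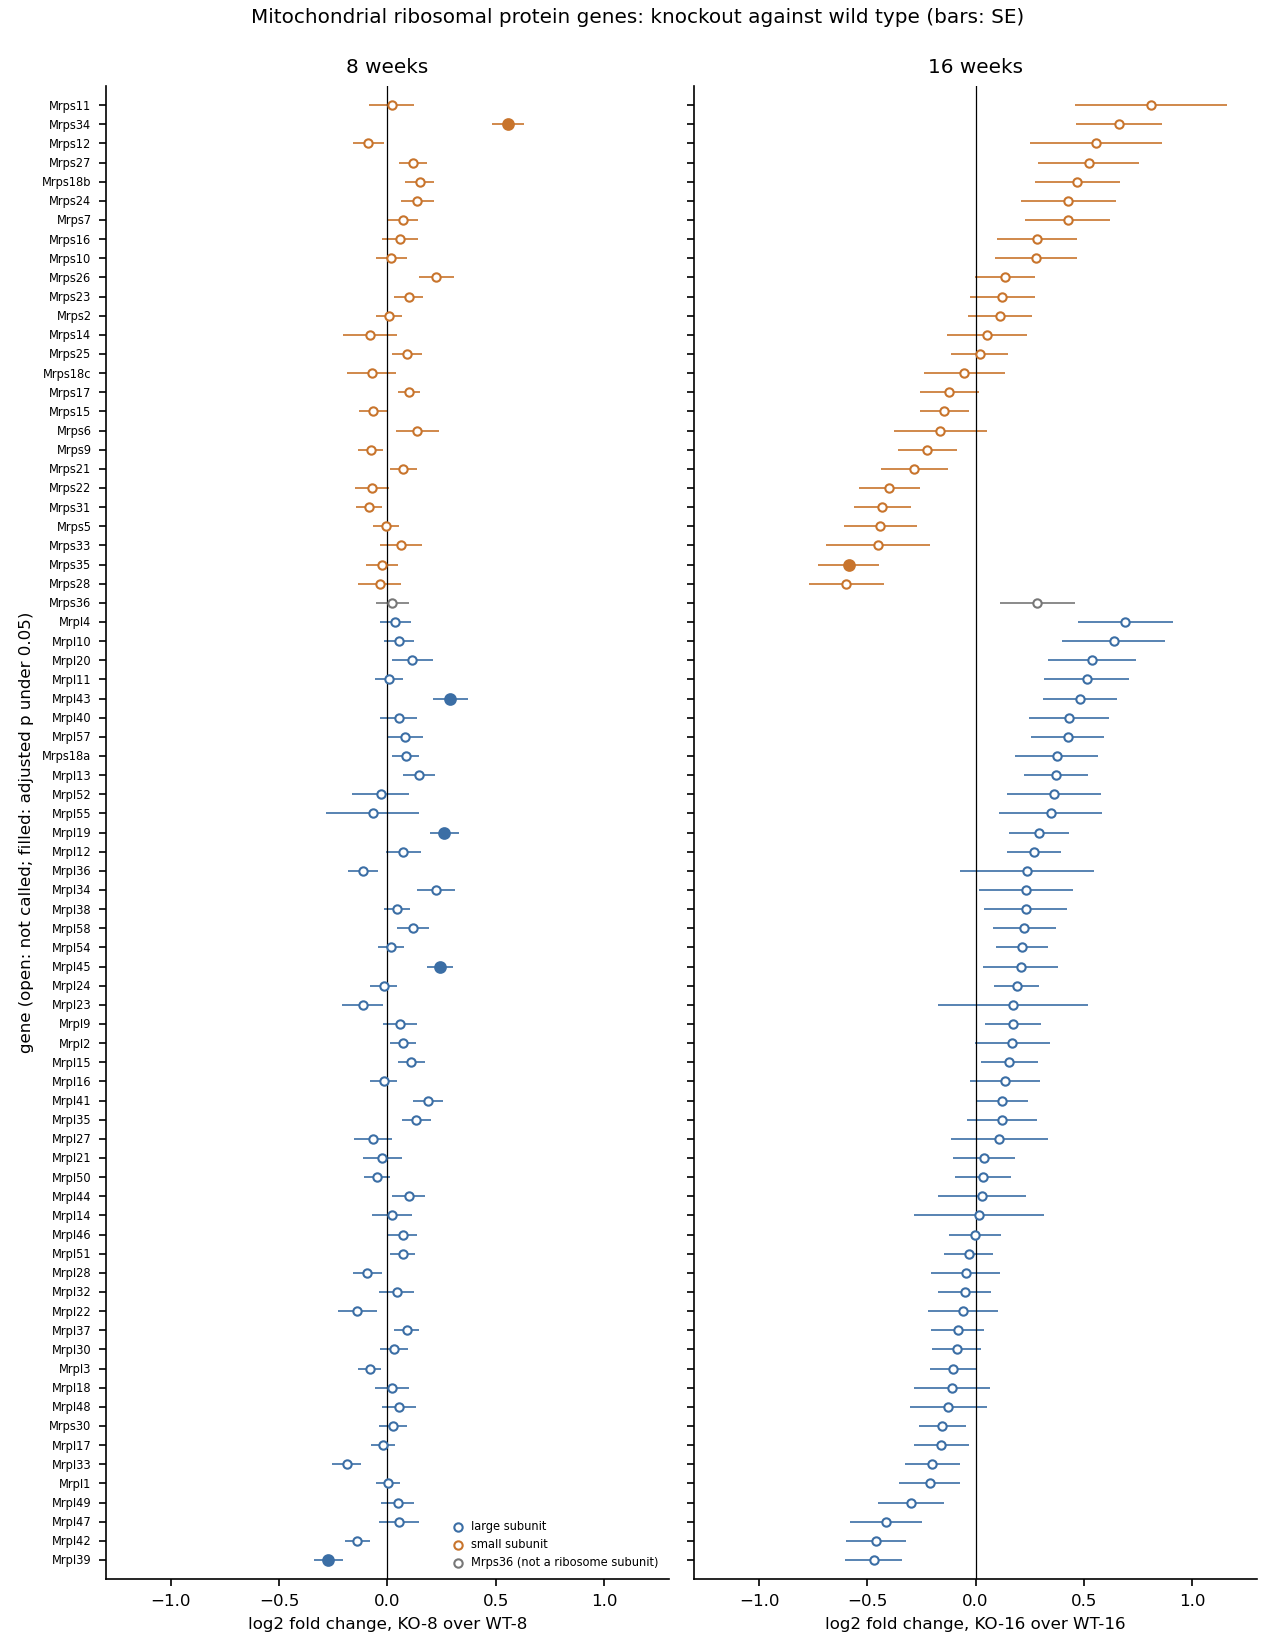
Log2 fold change of KO over WT for each of the 77 tested genes at 8 weeks (left) and 16 weeks (right), with SE bars, filled where the adjusted p was under 0.05. At 8 weeks Mrps34 stands apart at 0.56, and at 16 weeks the genes spread from -0.60 for Mrps28 to 0.81 for Mrps11 with wider bars.

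Mrps34, a mitochondria-specific protein of the small subunit needed for a stable small-subunit rRNA, showed the largest difference at 8 weeks. Its gene lies on chromosome 17 (GRCm38, 24895116 to 24897502, plus strand). It measured 15.5, 13.1, 12.03, 14.1 and 12.5 CPM in WT-8 and 20.3, 19.4, 18.5 and 20.5 CPM in KO-8. Every KO-8 library lay above every WT-8 library, and the fold change of 1.47 (log2 0.56, SE 0.07) had an adjusted p of 0.0005 (edgeR). Leaving out any library kept the call, with adjusted p from 0.000219 to 0.00235. On the same strand 37.0% of its exon length is shared with Nme3, which itself measured 0.427 CPM in WT-8 and 0.425 in KO-8. Part of the reads could therefore be assigned to either gene or left uncounted.

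Mrpl39, a mitochondria-specific protein of the large subunit, was the gene that fell. It read 49.8, 45.5, 44.5, 50.0 and 44.4 CPM in WT-8 and 43.3, 36.0, 34.9 and 39.8 CPM in KO-8. The groups did not overlap, and the log2 ratio was -0.27 (SE 0.07, adjusted p = 0.0217, edgeR). The call was lost without WT-8 replicate 1 or 4 or KO-8 replicate 2 or 3, at adjusted p of 0.0534 to 0.0673.

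Mrpl45 encodes the protein at the exit of the peptide tunnel that ties the large subunit to the inner membrane. It read 37.2, 33.4, 32.0, 34.5 and 31.1 CPM in WT-8 and 42.9, 38.6, 37.8 and 38.9 CPM in KO-8. All 4 KO-8 libraries were above all 5 WT-8 libraries, by 1.18-fold on average (log2 0.24, SE 0.06, adjusted p = 0.0231, edgeR). Mrpl19, homologue of bacterial L19, read 17.997, 17.7, 18.1, 17.5 and 15.8 CPM in WT-8 and 22.6, 20.9, 18.3 and 21.1 CPM in KO-8. These groups too did not overlap, although KO-8 replicate 3 and WT-8 replicate 3 were close (log2 0.26, SE 0.07, adjusted p = 0.0253, edgeR). Mrpl43, mitochondria-specific, read 15.8, 14.9, 12.9, 14.6 and 12.1 CPM in WT-8 and 18.7, 15.4, 16.6 and 17.3 CPM in KO-8. Here KO-8 replicate 2 fell inside the range of WT-8 (log2 0.29, SE 0.08, adjusted p = 0.0435, edgeR).

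These 3 calls were less firm than that of Mrps34. Mrpl45 missed the threshold without WT-8 replicate 3 or KO-8 replicate 1 (adjusted p of 0.0573 and 0.0662, edgeR). Mrpl19 missed it without WT-8 replicate 4 or 5 or KO-8 replicate 1, 2 or 4 (0.0504 to 0.0773). Mrpl43 kept it only without WT-8 replicate 1 or KO-8 replicate 2 and otherwise ranged from 0.0540 to 0.119. In number, 2 genes passed without WT-8 replicate 4, 3 without WT-8 replicate 3 or 5 or KO-8 replicate 3, and 4 without each of the other 5 libraries. The share of all genes that passed fell as well, to between 5.79% (without WT-8 replicate 4) and 7.58% (without KO-8 replicate 4). Without KO-8 replicate 1, which had the highest summed level of the family, the members split into 1 higher and 3 lower, beside 531 higher and 471 lower among all genes. With all 19 libraries in one edgeR fit, whose common spread was larger, no member passed at 8 weeks, beside 0.2% of all genes. A voom fit of all 19 libraries with quality weights per group kept 4 members, beside 7.23% of all genes.

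Groups without overlap were found for 4 genes, Mrps34, Mrpl45, Mrpl19 and Mrpl39, which is 5.19% of the members beside 10.9% of all genes. Next by p-value came Mrps26 (log2 0.23, adjusted p = 0.111), Mrpl33 (-0.19, 0.112) and Mrpl41 (0.19, 0.123), none of which passed (edgeR).

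**Figure D3:**
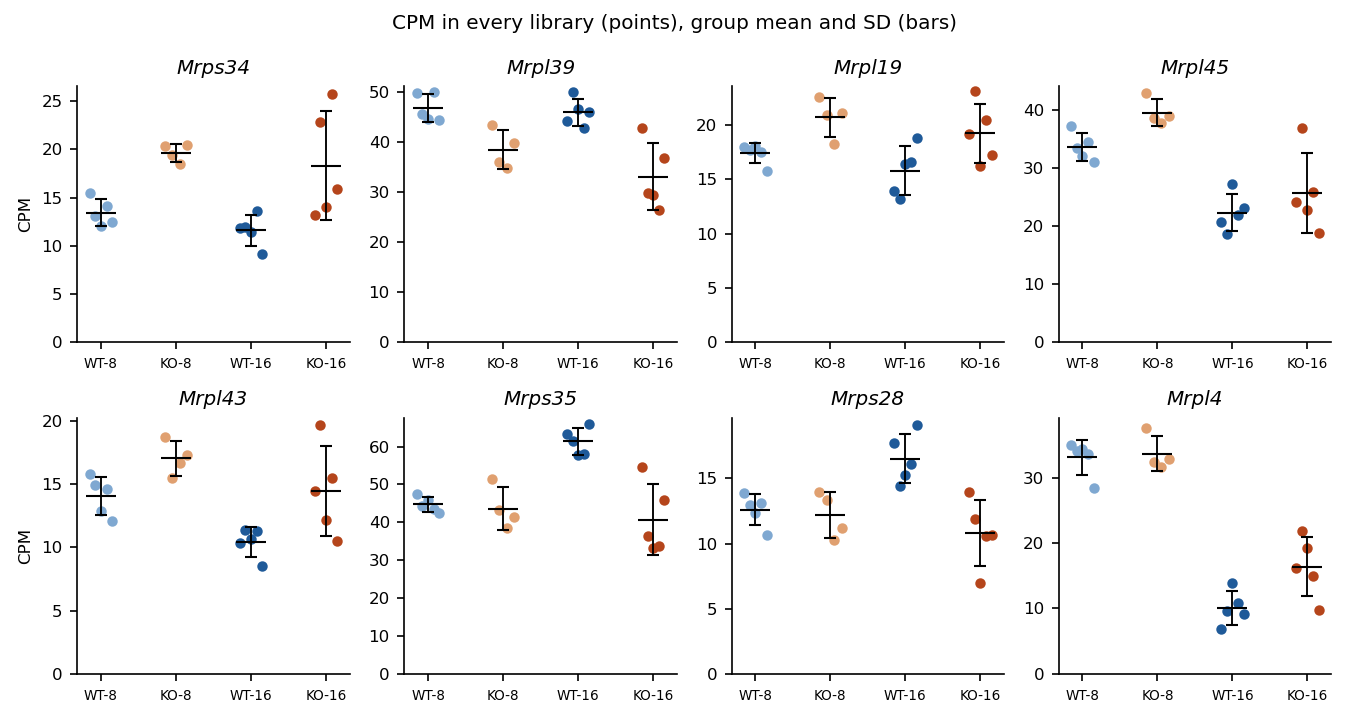
CPM of 8 genes in each library (points), with the group mean and SD (bars), in WT-8, KO-8, WT-16 and KO-16. For Mrps34 the KO-8 points at 18.5 to 20.5 CPM lie above WT-8, for Mrps35 the KO-16 points at 33.1 to 54.6 CPM lie below WT-16, and Mrpl4 is lower in all 16-week libraries than at 8 weeks.

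Promoters of nuclear genes for mitochondrial proteins are known to carry sites for the factors NRF1, the ETS family (with GABP, also called NRF2) and YY1. Windows from 250 bases before to 50 bases after the RefSeq start (GRCm38.p6) were available for 69 of the 78 genes. Mrpl15, Mrps28, Mrpl19, Mrps35, Mrpl54, Mrpl4, Mrpl38, Mrpl13 and Mrps34 had no entry. On either strand, the NRF1 motif GCGCNTGCG occurred in 18 of the 69 windows (26.1%), against 10.1% of the windows of 16522 protein-coding genes. A form longer by 1 letter was searched first and was in 13 windows (18.8% against 7.44%), and the shorter form was taken after those values were seen. The ETS motif CCGGAAG occurred in 26 (37.7% against 13.4%), and the YY1 motif AAGATGGC in 12 (17.4% against 3.64%). The last 3 letters of the ETS motif are the first 3 of the YY1 motif, so both can overlap. At least 1 of the 3 motifs was found in 44 windows. The GC box GGGCGG was in 49.3% against 51.0%, CCAAT in 39.1% against 42.1%, and TATAAA in 7.25% against 14.3%. A match is a description of the letters and not a bound site.

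Sequence before the start is shown for the 3 genes that passed the test at 8 weeks and had an entry, because they moved in different directions. Capitals mark the NRF1 motif or its reverse complement in all 3, and the ETS motif CCGGAAG in Mrpl43. For Mrpl39 only the 29 bases around the motif are given (chr16:84735351-84735379, minus strand), since this stretch lies in the first exon of the gene in the GENCODE M21 annotation. For Mrpl45 all 250 bases are given (chr11:97315466-97315715, plus strand), and for Mrpl43 the 115 bases before its start (chr19:45006443-45006557, minus strand). Twnk, on the other strand, overlaps Mrpl43, and the stretch ends where the next annotated exon of Twnk begins.
Mrpl39: aaggagaggcGCGCATGCGCccccgcgtg
Mrpl45: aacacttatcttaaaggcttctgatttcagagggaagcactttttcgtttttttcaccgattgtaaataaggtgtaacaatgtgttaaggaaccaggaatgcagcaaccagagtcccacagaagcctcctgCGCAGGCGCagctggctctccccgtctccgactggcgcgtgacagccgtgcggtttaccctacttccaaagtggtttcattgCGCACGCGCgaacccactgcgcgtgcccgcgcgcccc
Mrpl43: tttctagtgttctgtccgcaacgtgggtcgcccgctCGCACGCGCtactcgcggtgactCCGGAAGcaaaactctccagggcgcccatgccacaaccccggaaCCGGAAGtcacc
Mrpl39, which fell, has overlapping NRF1 matches on both strands, which begin 125 and 124 bases before the start. Mrpl45, which rose, has 2 NRF1 matches, at 119 and 37 bases before the start. Mrpl43, which also rose, has an NRF1 match at 79 bases, which the longer form did not find, and 2 ETS matches at 56 and 12 bases. The 18 genes with the NRF1 motif had a median log2 fold change of 0.06 at 8 weeks and 0.08 at 16 weeks, and the 50 tested genes without it 0.02 and 0.08. With the longer form the 16-week medians were 0.02 in the 13 genes that had it and 0.11 in the other 55. For the YY1 motif the medians were 0.06 and 0.31 with it (12 genes) and 0.02 and 0.04 without (56 genes). For the ETS motif they were 0.06 and 0.11 with it and 0.03 and 0.05 without. None of these motif medians was tested or adjusted for transcript GC content, which is set beside the 16-week differences below.

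At 16 weeks after induction, 1 of the 77 genes passed the test between KO-16 and WT-16, Mrps35, which fell. The share of 1.30% stood beside 2.83% of all 12597 genes tested, 1.88% higher and 0.945% lower (edgeR). The differences spread more widely than at 8 weeks, with quartiles of -0.12 and 0.29 on the log2 scale around a median of 0.12, while the median of all genes was 0.01. Over the alternative settings the members' median ran from 0.03 to 0.16, and it was 0.04 when the 18S share entered the model. Between libraries of the same group, the members' median level had an SD of 0.117 (log2, pooled over WT-16 and KO-16). The 16-week difference had a Spearman rho with log2 mean CPM of -0.36 over the members and -0.12 over 12593 genes. Of the 77 genes 71 lay within 1.5-fold (92.2%, against 83.2% of all genes). The fitted difference was positive for 47 genes and negative for 30. At an unadjusted p under 0.05, 14 were higher and 8 lower, 28.6% beside 25.4% of all genes. The median was 0.13 for the 50 large-subunit genes and 0.04 for the 26 small-subunit genes, whose quartiles ran from -0.27 to 0.39.

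Mrps35, mitochondria-specific and on chromosome 6 (147042764 to 147073991, plus strand), read 63.4, 61.4, 57.8, 58.1 and 65.9 CPM in WT-16. In KO-16 it read 54.6, 36.4, 33.1, 33.7 and 45.8 CPM. All 5 KO-16 libraries lay below all 5 WT-16 libraries, and the log2 ratio was -0.59 (SE 0.14, adjusted p = 0.0433, edgeR). At 8 weeks it averaged 44.7 CPM ± 2.00 in WT-8 (n = 5) and 43.6 ± 5.60 in KO-8 (n = 4), with overlapping libraries. The 16-week call held without KO-16 replicate 1 or 5 and was lost without each of the other 8 libraries, at adjusted p from 0.0614 to 0.117 and log2 values from -0.61 to -0.52. It was also lost among the libraries with over 20% of counts on the 18S gene (log2 -0.63, adjusted p = 0.0795, edgeR) and when the 18S share entered the model (-0.55, 0.133).

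Other genes were given by value, since none passed. Mrps28, the homologue of bacterial S1, read 17.7, 14.4, 15.3, 16.1 and 19.1 CPM in WT-16, and the KO-16 values were 13.9, 11.9, 6.97, 10.6 and 10.6 CPM. The groups did not overlap (log2 -0.60, SE 0.17, adjusted p = 0.0683, edgeR). Mrpl39 again read lower, at 44.2, 50.0, 46.6, 42.9 and 45.9 CPM in WT-16 against 42.9, 29.8, 29.5, 26.4 and 36.9 CPM in KO-16. Its groups met at 42.9 CPM without crossing (log2 -0.47, SE 0.13, adjusted p = 0.0641, edgeR). Mrps30, which belongs to the large subunit, was at 18.95 to 22.1 CPM (WT-16) against 15.1 to 18.92 CPM (KO-16) without overlap, but its log2 difference was -0.15 (adjusted p = 0.393, edgeR).

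These 4 genes, Mrps35, Mrps28, Mrpl39 and Mrps30, were the members whose 16-week groups did not overlap, all lower in KO-16, and made up 5.19% of the members beside 4.68% of all genes. Mrpl42 (log2 -0.46, adjusted p = 0.0756), Mrps31 (-0.43, 0.0758) and Mrps22 (-0.40, 0.110) also read lower in KO-16 without passing (edgeR).

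On the other side, Mrps34 read 11.9, 11.9, 11.4, 13.6 and 9.19 CPM in WT-16, and the KO-16 values were 13.2, 22.8, 13.998, 25.7 and 15.9 CPM. KO-16 replicate 1 lay inside the WT-16 range, and the log2 difference of 0.66 (SE 0.20) had an adjusted p of 0.0746 (edgeR). It exceeded the 8-week difference by 0.11 (SE 0.22, adjusted p = 0.857 for the interaction, edgeR). Mrpl4, homologue of the L4 protein that lines the peptide tunnel, read 6.82, 9.57, 13.9, 10.8 and 9.19 CPM in WT-16, and the KO-16 values were 16.1, 21.8, 19.3, 15.01 and 9.79 CPM. Only KO-16 replicate 5 fell inside the WT-16 range (log2 0.69, SE 0.22, adjusted p = 0.0847, edgeR).

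Mrps11, homologue of bacterial S11, had the largest positive difference, 0.81 (SE 0.35, adjusted p = 0.172, edgeR). It read 2.53, 1.63, 3.31, 3.33 and 1.15 CPM in WT-16, and the KO-16 values were 4.14, 6.05, 4.32, 5.37 and 1.49 CPM. Its lowest library held 5 counts in WT-16 and 9 in KO-16. The part of such low counts in the spread of this gene was not tested.

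The 16-week count rested on the method and on single libraries. It was 0 when any 1 of 8 of the 10 libraries was left out, beside 0.221% to 1.7% of all genes. It was 6 (7.79% of the members, beside 13.4% of all genes) without KO-16 replicate 1 and 11 (7 higher, 4 lower; 14.3%, beside 14.2%) without KO-16 replicate 5. DESeq2 gave 7 (2 higher, 5 lower; 9.26% of all genes), and the fit of all 19 libraries gave 20 (12 higher, 8 lower), beside 20.5% of all genes.

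Whether the knockout effect differed between the times was tested as an interaction in all 19 libraries. This contrast cancels a difference between runs only if the run acted alike on both genotypes. The fit also shares 1 spread per gene among all libraries. The common biological coefficient of variation was 0.0930 within the 8-week and 0.228 within the 16-week libraries. No member passed (0.0% of all 15503 genes did, edgeR), and DESeq2 and limma-voom also gave no member, with 0.194% and 0.0% of all genes. At an unadjusted p under 0.05 stood 10 members, beside 12.9% of all genes. The smallest belonged to Mrps35, whose 16-week effect was lower by 0.56 on the log2 scale than its 8-week effect (SE 0.17, adjusted p = 0.286, edgeR). Without KO-16 replicate 1, 1 member passed (1.30%, beside 3.95% of all genes). The 8-week and 16-week comparisons share no library. The sign was the same at both times for 51 of the 77 genes (66.2%), 36 higher and 15 lower in the knockout, and for 67.3% of the 12573 genes tested at both times. Across the 77 genes the 2 differences had Pearson's r = 0.43 and Spearman's rho = 0.39, beside 0.59 and 0.50 over the 12573 genes. These values are a description over genes that share libraries.

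Another 3 genes with well-known roles were looked up after the values had been seen. Mrpl12, which also binds the mitochondrial RNA polymerase, averaged 44.3 CPM ± 3.31 in WT-8, 46.3 ± 6.06 in KO-8, 27.8 ± 4.70 in WT-16 and 33.1 ± 2.28 in KO-16. Mrpl3 and Mrpl44 are disease genes of mitochondrial cardiomyopathy. Mrpl3 averaged 47.0, 44.0, 38.7 and 35.8 CPM and Mrpl44 15.6, 16.6, 10.3 and 10.4 CPM in the same order of groups. None of the 3 passed the test at either time.

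The summed level of all members overlapped between the genotypes at both times. It was 1830 CPM ± 84.4 in WT-8 (1705 to 1941) and 1850 ± 111 in KO-8 (1778 to 2014). At 16 weeks it was 1677 CPM ± 33.3 in wild types (1632 to 1716) and 1629 ± 161 in knockouts (1407 to 1767), a coefficient of variation of 1.99% and 9.88%. KO-16 replicate 3 at 1407 and replicate 5 at 1517 CPM were below every other library, and the other 3 KO-16 libraries lay between 1688 and 1767. Large-subunit genes summed to 1315, 1323, 1163 and 1147 CPM and small-subunit genes to 506, 518, 509 and 476 CPM in WT-8, KO-8, WT-16 and KO-16. In both subunits KO-16 replicate 3 was the lowest of the 19 libraries.

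**Figure D4:**
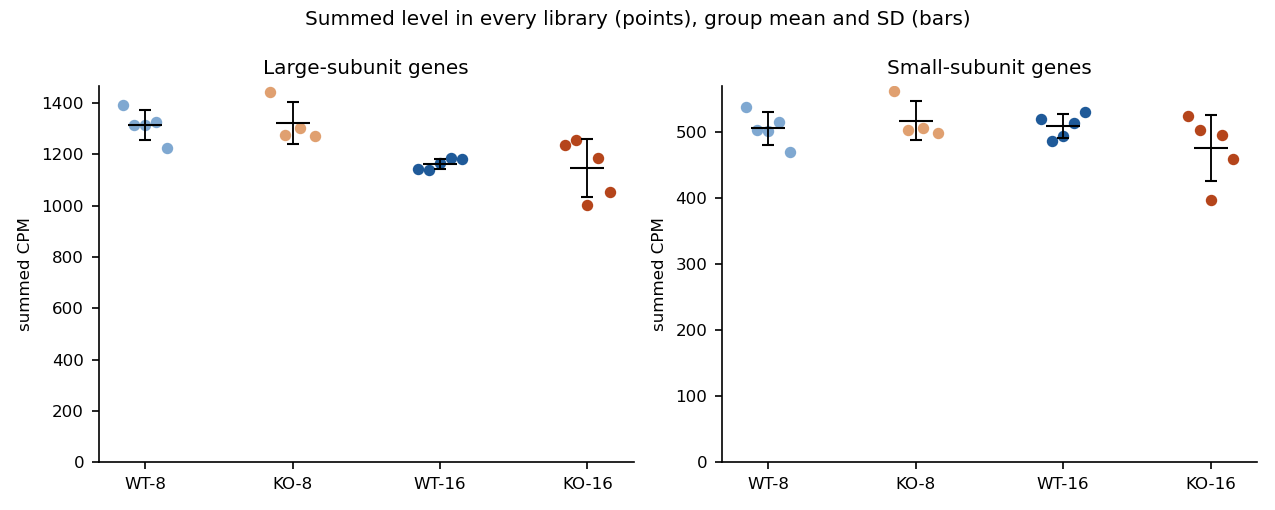
Summed CPM of the large-subunit genes (left) and small-subunit genes (right) in each library (points), with group mean and SD (bars). The KO-16 points spread from 1003 to 1257 CPM for the large subunit, and the WT-16 points from 1140 to 1184.

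Levels at the 2 times are set side by side as a description only. The 77 genes had a median log2 ratio of WT-16 to WT-8 of -0.28, against -0.01 for all genes. Of the 77, 54 were lower in WT-16 than in WT-8 (70.1%, beside 50.5% of all genes). In 36 of them the groups did not overlap, beside 21.6% of all genes lower in this way, and in 13 genes WT-16 lay wholly above WT-8, beside 17.5%. Between KO-8 and KO-16, 60 genes were lower at 16 weeks (77.9%, beside 49.3% of all genes). Of these 60, 25 were lower without overlap (14.7% of all genes), and another 4 genes were higher without overlap (10.9% of all genes). More than 2-fold lower in WT-16 were 9 of the 77 genes, beside 1492 of all 15503 genes. The 9 were Mrpl36, Mrps11, Mrpl4, Mrpl10, Mrps24, Mrps12, Mrpl55, Mrps18a and Mrps14. Mrpl36 averaged 10.8 CPM in WT-8 and 3.11 in WT-16, Mrpl10 24.1 and 7.85, and Mrpl4 33.1 and 10.1. Mrpl1 moved the other way, from 22.4 to 41.4 CPM.

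Differences at 16 weeks were set beside the GC content of the transcripts. The members' longest coding transcripts have 39.6% to 60.6% GC, with a median of 50.0%. In the group of genes with the lowest GC (26 genes), the median KO-16 to WT-16 difference was -0.10 on the log2 scale and 9 were positive. It was 0.14 in the middle group (25 genes, 19 positive) and 0.25 in the highest (26 genes, 19 positive). The WT-16 to WT-8 medians in the same groups were -0.09, -0.42 and -0.67. Over the 77 members the Spearman rho of GC content with the KO-16 to WT-16 difference was 0.47, and over 12593 genes it was 0.35. For WT-16 against WT-8 it was -0.40 over the members and -0.59 over 15489 genes. At 8 weeks the rho between GC content and the genotype difference was 0.17 over the members and 0.11 over 15168 genes. These are correlations across genes, which share their libraries and are not replicates. With the GC trend of each library removed, 2 members passed at 16 weeks, both lower (2.60%, beside 3.53% of all genes), and the median was 0.07. They were Mrps35 (log2 -0.56, adjusted p = 0.0417, edgeR) and Mrps28 (-0.72, 0.0493). In the same fit Mrps34 read 0.42 (adjusted p = 0.209, edgeR), Mrpl4 0.43 (0.143) and Mrps11 0.65 (0.229). Mrpl39, Mrpl42, Mrps31 and Mrps22 read -0.44, -0.40, -0.32 and -0.32 and did not pass. Beyond this fit, the part of GC content in the differences of single genes was not tested.

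**Figure D5:**
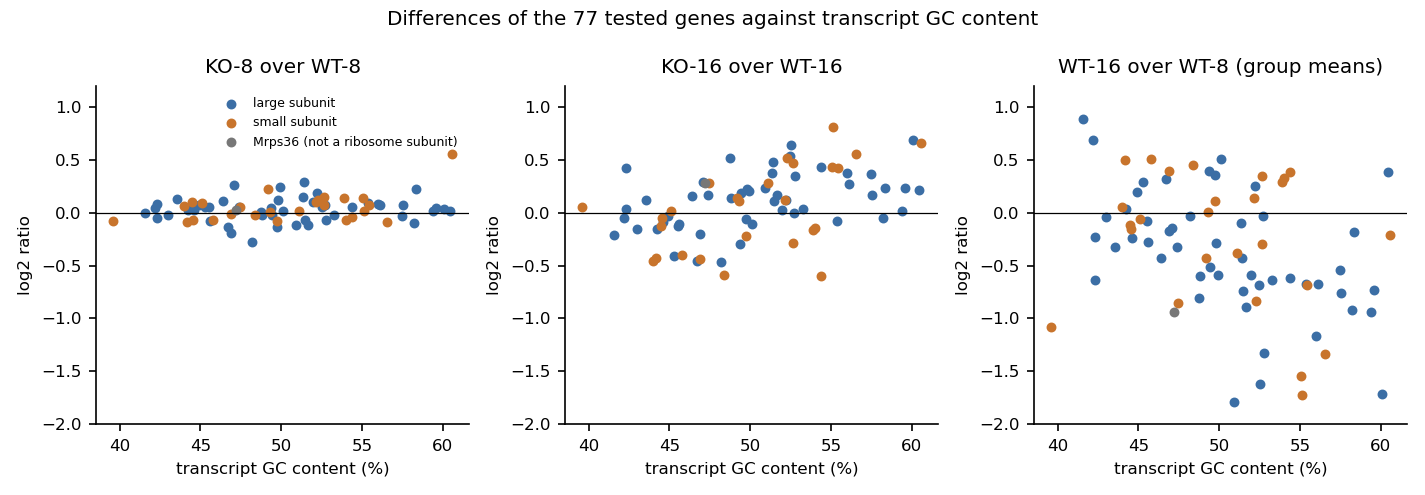
Log2 ratio of each of the 77 tested genes against the GC content of its transcript (%), for KO-8 over WT-8, KO-16 over WT-16 and WT-16 over WT-8. Points are flat in the first panel except Mrps34 at 0.56, climb with GC in the second (rho 0.47) and fall with GC in the third (rho -0.40).

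Some of these genes start close to the start of a neighbour on the other strand. Whether such pairs share a promoter was not tested, and the rate over all protein-coding genes was not taken. Within 1000 bp of their starts, 33 members had a gene running the other way, of which 31 such partners were not members. The members Mrps11 and Mrpl46 form a pair whose ends overlap by 412 bp, and their 16-week log2 differences were 0.81 and -0.00. Of the 26 partners tested that were not members, 2 passed at 8 weeks, Cyb5rl, which fell (log2 -0.42, adjusted p = 0.0147, edgeR), and Klc4, which rose (0.25, 0.0383). None passed at 16 weeks. The member beside Cyb5rl, Mrpl37, read 0.09 at 8 weeks and did not pass. Member and partner had the same sign in 14 of 26 pairs at 8 weeks and in 11 of 26 at 16 weeks. Besides Mrpl53 and Mrps34, Mrps18c, Mrps6 and Mrps24 share over 10% of their exon length with another gene on the same strand, so their counts are less certain. Counting was strand-specific, per the file headers.

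Another 5 proteins of the mitochondrial ribosome have other names. Of these, Gadd45gip1, in the large subunit, rose at 8 weeks from 21.7 CPM ± 2.10 to 26.04 ± 2.22 (log2 0.27, SE 0.08, adjusted p = 0.0385, edgeR), with overlapping libraries. At 16 weeks it averaged 18.2 and 24.3 CPM (log2 0.43, adjusted p = 0.0803). Dap3, Chchd1, Aurkaip1 and Ptcd3 did not pass at either time, with log2 differences between -0.10 and 0.18. Of 25 genes for the assembly of the ribosome and modification of its rRNAs, 1 passed at 8 weeks, the GTPase gene Mtg2, which fell (log2 -0.24, adjusted p = 0.0325, edgeR), and none of the 24 tested passed at 16 weeks.

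Of 12 translation factor genes none passed at either time. Taco1, an activator of COX1 translation, read 0.19 at 8 weeks (adjusted p = 0.0919, edgeR), and Mrrf, the ribosome recycling factor, -0.41 at 16 weeks (0.116). Among 20 genes for charging mitochondrial tRNAs, Cars2 fell at 8 weeks (log2 -0.30, adjusted p = 0.0104, edgeR) and read -0.61 at 16 weeks (0.0894). Among 12 genes of mitochondrial DNA transcription and RNA stability, Tfam, the packaging and transcription factor of mitochondrial DNA, rose at 8 weeks from 21.6 CPM ± 0.844 to 25.4 ± 1.88 without overlap (log2 0.24, adjusted p = 0.0243, edgeR). Lrpprc, which stabilises mitochondrial mRNAs, averaged 234 CPM in the 16-week wild types and 169 in the knockouts (log2 -0.46, adjusted p = 0.0848, edgeR).

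Of 8 regulators of mitochondrial biogenesis, Ppargc1a, which encodes the coactivator PGC-1 alpha, fell at 8 weeks. It averaged 159 CPM ± 21.9 in WT-8 and 122 ± 18.9 in KO-8 (log2 -0.38, SE 0.11, adjusted p = 0.0411, edgeR), and KO-8 replicate 4 at 141 CPM overlapped WT-8. At 16 weeks its averages were 279 CPM for wild type and 149 for knockout with wide spread (log2 -0.90, adjusted p = 0.145). Nrf1, Gabpa and Yy1, whose motifs were searched above, read -0.14, -0.04 and -0.04 at 8 weeks and -0.09, -0.57 and -0.05 at 16 weeks, and none passed. Among the 2 rRNA genes of mitochondrial DNA, mt-Rnr2 held 8.49% to 15.2% of the counts after the rRNA depletion and mt-Rnr1 1.01% to 6.60%. Of these, mt-Rnr2 fell at 8 weeks (log2 -0.31, adjusted p = 0.0378, edgeR) and read -0.90 at 16 weeks (0.176), and mt-Rnr1 read -0.26 (0.151) and -1.22 (0.221). The part of unequal depletion in these values was not tested.

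Markers of other cell types moved between the groups. At 8 weeks, 5 of 8 fibroblast markers rose, and their summed level was 637 to 711 CPM in WT-8 and 846 to 1202 in KO-8. Also 2 of 6 endothelial and 2 of 6 smooth muscle and pericyte markers rose, 2 of 8 cardiomyocyte markers (Ryr2, Pln) and 1 of 5 erythroid markers (Hbb-bt) fell, and no macrophage marker of 7 passed. At 16 weeks 4 of 7 tested fibroblast markers rose, with sums of 453 to 590 CPM (WT-16) against 613 to 1619 (KO-16), and 1 of 6 in both the endothelial and the smooth muscle list. None of the 8 cardiomyocyte markers passed at 16 weeks, and their sum was 45827 to 52891 CPM (WT-16) against 27045 to 48123 (KO-16). In the atrial list only Nppa passed, a stress gene of the ventricle, which rose at both times. The fitted difference was negative for 2 of the 3 atrial genes tested at 8 weeks and 2 of the 4 tested at 16 weeks, without passing. The erythroid sum was 53.1 to 131 CPM (WT-16) against 47.3 to 1122 (KO-16). The adipocyte genes Adipoq, Plin1, Cidec and Retn were under 0.5 CPM in every 8-week library. At 16 weeks their sum had a median of 0.459 CPM (WT-16) against 0.167 (KO-16) but reached 22.5 and 3.49 CPM in the highest library of each. Of the 5 genes listed for skeletal muscle, Myh1, Myh4 and Actn3 were under 0.5 CPM in all libraries. Tnnt3 was under 0.5 CPM in every 8-week library but not in every 16-week one. Ckm, the only gene of this list that was tested, averaged 781 CPM over the 19 libraries and did not pass at 8 weeks (log2 0.11) or 16 weeks (0.13). Its level was not taken as a sign of skeletal muscle. The part of these cell types in the differences of the ribosomal protein genes was not tested.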

How the data were processed

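Values were the read-pair counts per gene deposited by the authors, made per the file headers with featureCounts 1.6.3 (paired, reverse-stranded, largest overlap) on GRCm38 with Ensembl 96. Of the steps before counting, the submitters' processing notes list only STAR, RSEM, SAMtools, FastQC and cutadapt 1.16, with settings not given in the sources used here. The 2 files of each 16-week library were summed (29 files, 19 libraries). CPM are counts over the library total times the TMM factor. Tests used edgeR 4.0.16 in R 4.3.3 (filterByExpr, quasi-likelihood, Benjamini-Hochberg over all genes, threshold 0.05) within each time, because the spread differed between times, and all 19 libraries for the interaction. SE was derived from the F statistic (log2 ratio divided by its root). Motifs, GC content and overlaps came from RefSeq promoter windows and GENCODE M21. Named members are those that passed, the smallest p-values up to 8 per time, the largest differences, the 5 highest and 5 lowest levels, and those failing the filter. Alternatives were RLE and upper-quartile factors, other filters, DESeq2 1.42.0, limma 3.58.1 voom, gene subsets, covariates, single files and left-out libraries. Members and lists were chosen with earlier results of these data known. Scripts were tested on simulated data.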

Additional observations from a re-analysis of the deposited data

Results flagged for a closer look

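Single libraries stood apart from the rest of their group in 4 of 100 groups of values examined (24 members and the summed level in 4 groups), where chance gives about 1 in 20. In WT-8, replicate 5 read 15.8 CPM for Mrpl19 against 17.5 to 18.1 CPM in the other 4 libraries. The same library read 28.4 CPM for Mrpl4 against 33.6 to 35.0 CPM. For Mrps26, KO-8 replicate 1 read 15.7 CPM against 12.8 to 13.3 CPM in the other 3 libraries. For Mrps10, WT-16 replicate 2 read 9.75 CPM against 6.57 to 7.35 CPM. Of these genes only Mrpl19 had passed a test, and without WT-8 replicate 5 its log2 difference at 8 weeks was 0.23 (adjusted p = 0.0555, edgeR).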

How the results depend on the processing

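The number of members called at 8 weeks (5) was 0 with all 19 libraries in one edgeR fit (0.2% of all genes). It was between 2 and 4 when a library was left out, and 4 with voom quality weights per group (7.23%). Those weights were fitted to all 19 libraries at both times. Every other alternative gave 5. At 16 weeks (1), the number was 2 without a low-count filter (3.56% of all genes) and 2 with the GC trend removed (3.53%), 7 with DESeq2 (9.26%), 10 with voom quality weights per group (11.9%) and 20 with all 19 libraries in one fit (20.5%). It was 0 with the 18S share or sex as a covariate, from the earlier file of each library alone, without the male libraries and among libraries with over 20% of counts on the 18S gene. Leaving out a library gave 0 to 11. For the interaction (0), leaving out a library gave 0 to 1, and every other alternative gave 0. The median difference stayed between 0.0103 and 0.0706 at 8 weeks and between 0.0301 and 0.157 at 16 weeks in log2, and no gene named for its difference (rather than its level) reversed. The removed GC trend, the left-out males, the 18S subset and, for the counts and medians at each time, the quality weights were chosen after seeing the data. The causes of these shifts were not tested. No paired analysis was possible because the labels give the groups no shared replicate numbers. Depth limits low genes at 16 weeks most, where libraries held as few as 6605 counts on all members.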
